A study of Mus musculus with 20 samples.

Results

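Metabolic regulators of the kidney tubule were followed in whole kidneys of Alport mice as a set of 8 genes. Ppara, Rxra, Esrra, Esrrg, Hnf4a and Nr1h4 encode nuclear receptors, and Ppargc1a and Ppargc1b encode the coactivators PGC-1 alpha and PGC-1 beta. They were taken by gene symbol and not by a rule on their values, though with earlier results of these data known. They are 8 of the 47069 genes in the deposited count table. All 8 were among the 17622 genes with enough counts to be tested.

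The mice were males of the 129SJ x C57Bl/6J strain, killed at 15 weeks of age. The WT group held 5 untreated mice with intact Col4a3, the gene of the type IV collagen alpha 3 chain. The other groups carried the Col4a3-/- genotype, a loss of that chain in every cell of the body, and were treated from 5 weeks of age until death. Veh mice (n = 6) received PBS once weekly by subcutaneous injection. The Anti-miR-21 group (n = 6) received weekly lademirsen, an oligonucleotide inhibitor of the microRNA miR-21, at 50 mg/kg in PBS. The ACEi group (n = 3) drank water with the angiotensin-converting enzyme inhibitor ramipril at 11 mg/L and, by the study's methods, also received PBS injections, while the deposited library table gives ramipril as 4 mg/kg. Each library is the whole kidney RNA of 1 mouse, so every value below averages over all cell types of the organ. Fewer cells of a type and less RNA per cell cannot be told apart in such libraries.

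Estimated counts on genes summed to between 28474301 and 29479629 per mouse. The libraries came from 2 flow cells, A with 13 libraries (3 WT, 4 Veh, 5 Anti-miR-21, 1 ACEi) and B with 7 (2 WT, 2 Veh, 1 Anti-miR-21, 2 ACEi). Col4a3 fitted the labels, at 194 to 238 CPM (counts scaled to a common library size) in WT against 27.9 to 46.3 in Veh, 45.9 to 74.9 in Anti-miR-21 and 42.8 to 56.2 in ACEi mice. One submitted protocol names adipose tissue as the source of the RNA, whereas the sample labels name kidney. The 20 proximal tubule genes listed further on summed to at least 4380 CPM in every mouse, and the 5 adipocyte markers to at most 138 CPM.

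Proximal tubule cells draw most of their energy from fatty acids burned in mitochondria. PPAR alpha (Ppara) is a fatty acid sensor that binds DNA together with the retinoid X receptor RXR alpha (Rxra) and switches on genes of fatty acid oxidation. The estrogen-related receptors ERR alpha and ERR gamma (Esrra, Esrrg) drive genes of the respiratory chain and the citric acid cycle, and the PGC-1 coactivators dock on these receptors to raise their output. HNF4 alpha (Hnf4a) maintains the identity of proximal tubule cells, and the bile acid receptor FXR (Nr1h4), which also pairs with RXR, controls bile acid transport genes in liver, gut and kidney.

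The drug of the Anti-miR-21 group binds a microRNA, so its sequence and its possible matches in the 8 transcripts are shown first. The mature mouse miR-21a-5p (RefSeq, GRCm38.p6, chr11:86584120-86584141, minus strand) is printed with its seed, bases 2 to 8, in capitals.
mmu-miR-21a-5p: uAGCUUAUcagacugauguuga
Letters complementary to the seed were searched in the 3' untranslated regions (UTRs) of the annotated transcripts (GRCm38), as ATAAGCTA (8mer), ATAAGCT (7mer-m8) and TAAGCTA (7mer-A1). The 8mer holds both shorter forms. Ppara, Hnf4a and Ppargc1a held a match, printed as 30 bases of the sense strand with the matching letters in capitals.
Ppara, 8mer, chr15:85801807-85801836, plus strand: gagaacattcgagaatagtttgATAAGCTA
Hnf4a, 7mer-m8, chr2:163572364-163572393, plus strand: aaggaaagtttactcttctgattATAAGCT
Ppargc1a, 7mer-m8, chr5:51455057-51455086, minus strand: cactgtgggtagcccatcaaaatATAAGCT
The match began at base 571 of a 1561-base UTR in Ppara, at base 2296 of 2814 in Hnf4a and at base 3117 of 3930 in Ppargc1a. Any of the 3 forms occurred in 12.6% of the 15216 tested protein-coding genes with a UTR, and in 3 of the 8 regulators. The 8mer occurred in 2.38% of those genes and the 7mer-m8 letters in 8.0%. UTR lengths differ, from 476 bases in Nr1h4 to 3930 bases in Ppargc1a, and a letter match does not show that the microRNA binds.

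Nr1h4, the FXR gene, had the largest loss in Veh kidneys, and the 250 bases before its RefSeq start are printed because this window held the nuclear receptor letters AGGTCA, which a window of Rxra held as well. That start lies inside the gene span given further on, downstream of the span's 5' end. The sequence is from RefSeq (GRCm38.p6), read 5' to 3' on the strand of the gene, with the match in capitals.
Nr1h4, chr10:89506659-89506908, minus strand: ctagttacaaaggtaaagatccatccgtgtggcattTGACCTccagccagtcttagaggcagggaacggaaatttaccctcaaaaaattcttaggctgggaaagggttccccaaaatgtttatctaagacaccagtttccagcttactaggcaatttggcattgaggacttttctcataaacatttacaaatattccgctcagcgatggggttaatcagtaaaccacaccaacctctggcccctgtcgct
The letters were read on the opposite strand, near the upstream end of the window. They are common, since AGGTCA occurred on either strand in 14% of 32851 promoter windows of the same length. The CREB letters TGACG, a short form contained in TGACGTCA, were found in Ppara and Ppargc1a and in 17.8% of all windows, and the MEF2 letters TATTTATA in Esrrg and in 1.56%. Ppargc1b was not analysed here for promoter letters. No window of the other 7 regulators held the ERR element TCAAGGTCA, which itself contains AGGTCA, or TGACGTCA, the HNF4 letters CAAAGTCCA, or AGGTCA repeated with 1 base between copies in the same direction (the DR1 motif) or the opposite direction (IR1). Of all windows, 0.387% held the ERR element, 1.55% TGACGTCA, 0.384% CAAAGTCCA, 0.0335% DR1 and 0.00609% IR1.

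The 8 regulators differed widely in level. On the deposited FPKM scale, which divides by transcript length and so allows one gene to be set against another, the order in WT kidneys was Hnf4a (158 ± 15.2 FPKM, SD, n = 5), Esrra (71.6 ± 6.68), Nr1h4 (62.4 ± 13.8), Rxra (29.3 ± 3.41), Ppara (8.9 ± 0.931), Esrrg (7.72 ± 0.604), Ppargc1a (5.27 ± 0.695) and Ppargc1b (1.33 ± 0.205). Only the neighbors Esrra and Nr1h4, and Ppara and Esrrg, overlapped between mice in that order. On the FPKM scale the receptors thus stood above the coactivators in WT kidneys, with Ppargc1b lowest. The place of Ppara in this order is uncertain, since its counts were only 0.0707 of those implied by its FPKM and length. In Veh kidneys the order was the same except that Esrrg (5.31 ± 0.756 FPKM, n = 6) stood above Ppara (4.06 ± 0.79), and there Nr1h4 and Rxra, Esrrg and Ppara, and Ppara and Ppargc1a overlapped. Both treated groups had the WT order, with an overlap of Esrra and Nr1h4 in each and of Ppara and Esrrg in Anti-miR-21 mice. The deposited FPKM entries of Ppara, Ppargc1b, Esrra, Esrrg and Hnf4a were marked by the authors as confounded with other genes. All further levels are CPM scaled between mice by edgeR's TMM method, which compare a gene between mice and not with another gene.

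**Figure D1:**
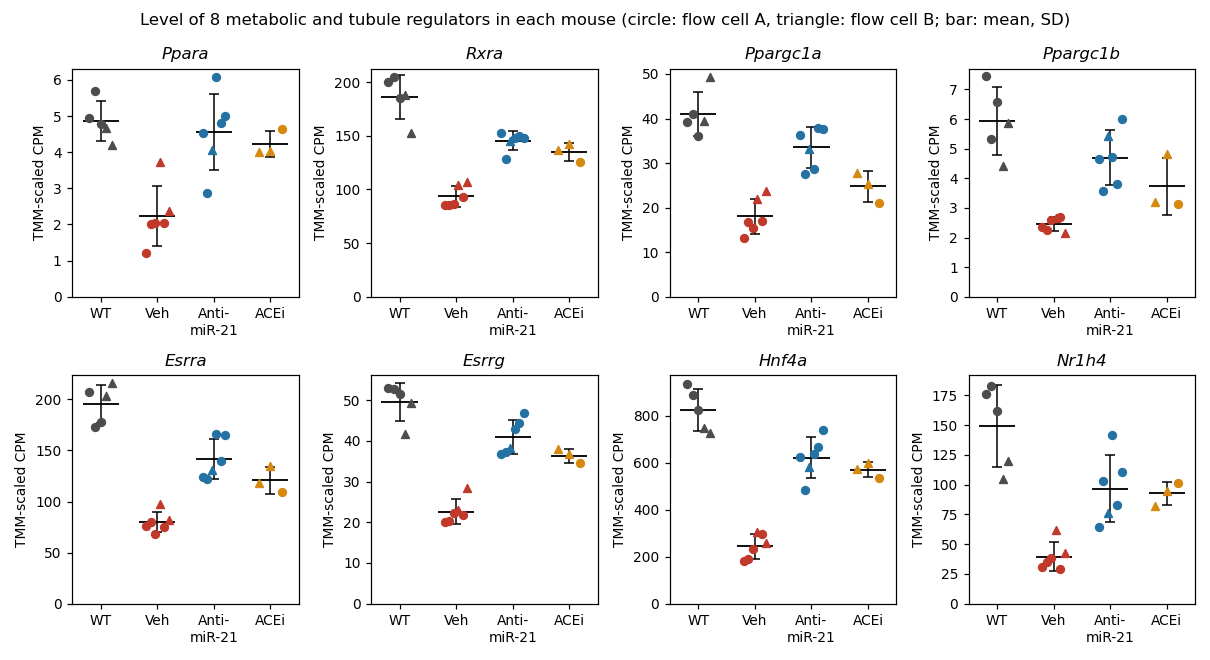
TMM-scaled CPM of each regulator (vertical axes, linear, from 0) in each of the 20 mice by group, with flow cell A as circles and B as triangles, and the group mean with its SD as bars. Every Veh mouse lies below every WT mouse for all 8 genes, for example 182 to 307 against 728 to 935 CPM for Hnf4a, and the treated groups have means between the Veh and WT means.

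Loss of Col4a3 without drug treatment was examined first, by comparing Veh with WT mice. All 8 regulators were lower in Veh kidneys, between 1.99-fold (Rxra) and 3.79-fold (Nr1h4). Their median log2 fold change was -1.23, compared to 0.07 over all 17622 genes. With edgeR's quasi-likelihood test and an adjusted p threshold of 0.05, 73.0% of all genes differed and 34.0% were lower, so a lower call by itself is common in this comparison. No Veh mouse overlapped a WT mouse for any of the 8 genes, which held for 54.9% of all genes in either direction and for 26.1% with Veh lower.

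Hnf4a (ENSMUSG00000017950, chromosome 2, 163506808 to 163572910, plus strand, GRCm38) had the highest level. It read 935, 891, 826, 749 and 728 CPM in the 5 WT mice, and its lowest, median and highest values in Veh mice were 182, 246 and 307 CPM. The least affected Veh mouse was thus far below the lowest WT mouse. The group means were 826 ± 89.1 in WT and 245 ± 52.9 CPM in Veh, a 3.38-fold lower level (log2 fold change -1.75, SE 0.13, adjusted p = 3.3e-10).

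Nr1h4 (ENSMUSG00000047638, chromosome 10, 89454234 to 89533585, minus strand) showed the largest fold difference of the 8. Its WT values were 176, 183, 162, 105 and 120 CPM, and the Veh values ran from 28.9 over a median of 36.5 to 61.7 CPM. The 2 lower WT values were those of flow cell B, and the highest Veh value also came from that flow cell. Mean levels were 149 ± 34.6 in WT and 39.4 ± 12 CPM in Veh (log2 fold change -1.92, SE 0.21, adjusted p = 5e-08). Within flow cell A the fold change was -2.39, and within flow cell B, with 2 mice a group, it was -1.12 (adjusted p = 0.0025).

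Ppara (ENSMUSG00000022383, chromosome 15, 85734983 to 85802819, plus strand) was called on few reads, 44 to 162 counts per mouse. Values were 4.94, 5.70, 4.77, 4.66 and 4.19 CPM in WT mice, while those of Veh mice had a lowest, median and highest of 1.22, 2.04 and 3.73 CPM. Most Veh mice lay close to 2 CPM, with 1 Veh mouse of flow cell B near the lowest WT value. The mean was 2.17-fold lower in Veh (2.24 ± 0.828 compared to 4.85 ± 0.549 CPM, log2 fold change -1.12, SE 0.21, adjusted p = 7.2e-05). Within flow cell B the difference was -0.54 and not called (adjusted p = 0.15). The Ppara counts were only 0.0707 of those implied by its FPKM and length, while the median gene stood at 0.947 and 0.236% of 14381 genes lay lower. The reason for this gap was not tested. The deposited FPKM of Ppara also separated the groups, with 7.52 to 9.96 in WT and 2.74 to 4.85 in Veh.

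Rxra (ENSMUSG00000015846, chromosome 2, 27676440 to 27762957, plus strand), the shared partner of PPAR alpha and FXR, read 200.1, 205.4, 184.5, 188.4 and 152.8 CPM in WT mice. In Veh mice its lowest, median and highest values were 85.4, 89.7 and 107 CPM. The difference was the smallest of the 8 and had a small error (log2 fold change -0.99, SE 0.08, adjusted p = 8e-10), with means of 186 ± 20.5 and 93.6 ± 9.7 CPM.

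The estrogen-related receptors fell together. Esrra (ENSMUSG00000024955, chromosome 19, 6910977 to 6921813, minus strand) gave log2 CPM levels of 7.69, 7.44, 7.48, 7.67 and 7.76 in WT mice and of 6.09 to 6.61 in Veh mice, a gap wider than the spread in either group. Its mean was 195 ± 18.9 CPM in WT and 2.45-fold lower in Veh, where the lowest, median and highest mice read 68.1, 77.8 and 97.7 CPM (log2 fold change -1.29, SE 0.10, adjusted p = 5.2e-10). Esrra shares 73 exon bases with Trmt112 on the opposite strand and 91 with Mir6990, and whether the counting used strand is not given in the sources used here. Trmt112 itself read 22.4 to 38.1 CPM, here scaled by library totals without TMM, and Mir6990 no count in any mouse. Esrrg (ENSMUSG00000026610, chromosome 1, 187608791 to 188214885, plus strand) gave 53.0, 52.7, 51.6, 41.7 and 49.3 CPM in WT mice, compared to 20.1, 22 and 28.3 CPM as lowest, median and highest in Veh mice. It was 2.20-fold lower (log2 fold change -1.14, SE 0.09, adjusted p = 5.1e-10), and 1 Veh mouse, A20, stood above the other 5.

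The coactivator genes were lower as well. Ppargc1a (ENSMUSG00000029167, chromosome 5, 51454250 to 51567726, minus strand) read 39.2, 41.1, 36.1, 39.4 and 49.4 CPM in WT mice and 13.2, 16.9 and 23.8 CPM (lowest, median, highest) in Veh mice. It was 2.28-fold lower (log2 fold change -1.19, SE 0.13, adjusted p = 9e-08). Ppargc1b (ENSMUSG00000033871, chromosome 18, 61298136 to 61400431, minus strand), the gene with the lowest FPKM of the 8, read 7.44, 5.33, 6.59, 4.42 and 5.87 CPM in WT mice. Its Veh values ran narrowly from 2.14 over 2.48 to 2.69 CPM, with 76 counts in the mouse with fewest (log2 fold change -1.27, SE 0.16, adjusted p = 4.8e-07). WT mice thus varied more than Veh mice for this gene, and the groups stayed apart.

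The size of these differences depended on scaling. TMM factors were 0.77 to 0.85 in WT and 1.12 to 1.26 in Veh libraries. With library totals in place of TMM the median of all genes moved from 0.07 to 0.65 and the share of higher calls from 53.4% to 81.2%, while all 8 regulators remained lower and called, at log2 fold changes from -1.35 to -0.41. In that setting 81.2% of all genes were called in either direction. Within flow cell A all 8 were called (-2.39 to -1.16), compared to 68.4% of all genes. Within flow cell B 7 were called, all but Ppara, compared to 52.9% of all genes.

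Treatment with anti-miR-21 was compared with Veh next. Each of the 8 regulators was higher in Anti-miR-21 than in Veh kidneys, by 1.55-fold (Rxra) to 2.54-fold (Hnf4a), with a median log2 fold change of 0.92 compared to -0.04 over all genes. Of all genes 59.2% differed in this comparison and 28.8% were higher. Anti-miR-21 and Veh mice stood fully apart in 7 of these genes, all but Ppara, which held for 36.4% of all genes in either direction and for 18.6% with Anti-miR-21 higher.

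Hnf4a ran from 484 over a median of 632 to 740 CPM in Anti-miR-21 mice. Every treated mouse lay above the highest Veh mouse, and only mouse A22, at 740 CPM, reached the range of the WT mice. The rise over Veh was 1.35 on the log2 scale (SE 0.13, adjusted p = 7.2e-08). Nr1h4 spread widely, with 64.8, 92.9 and 142 CPM as lowest, median and highest, and rose by 1.29 (SE 0.20, adjusted p = 1.4e-05).

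Ppara read 2.88, 4.67 and 6.07 CPM as lowest, median and highest in Anti-miR-21 mice. The lowest, A8, lay below the highest Veh mouse, so these groups overlapped, and the rise of 1.03 (SE 0.20, adjusted p = 0.0002) carries the count limit given above. Rxra lay between 128 and 153 CPM with a median of 148, a rise of 0.63 (SE 0.08, adjusted p = 8.8e-07). Its 6 treated mice lay between the Veh and WT groups, and the highest of them rounded to the same 153 CPM as the lowest WT mouse.

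Among the remaining genes, Esrra ran from 122 over 135 to 166 CPM and rose by 0.82 (SE 0.10, adjusted p = 6.1e-07). Esrrg ran from 36.7 over 40.6 to 46.8 CPM and rose by 0.86 (SE 0.09, adjusted p = 1.1e-07). Ppargc1a ran from 27.5 over 34.7 to 37.9 CPM, with a rise of 0.90 (SE 0.13, adjusted p = 6.3e-06). For Ppargc1b the values were 3.58, 4.68 and 6.01 CPM, with a rise of 0.94 (SE 0.15, adjusted p = 3.2e-05). The receptors Esrra and Esrrg and the 2 coactivators were thus all above every Veh mouse in all 6 treated mice. Flow cell A held 5 of the 6 Anti-miR-21 mice. Within it all 8 rises were called (0.73 to 1.61), compared to 56.7% of all genes called in either direction. The single treated mouse of flow cell B was not tested alone. With library totals all 8 were still called, from 0.29 to 1.0, and 69.9% of all genes were. There the median of all genes moved to -0.38 and the share of higher calls from 48.6% to 20%.

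ACEi treatment also raised all 8 regulators above Veh, from 1.37-fold (Ppargc1a) to 2.35-fold (Nr1h4), with a median log2 fold change of 0.65 compared to -0.05 over all genes. Of all genes 40.1% were called and 21.0% were called higher. The groups were apart for 7 of the 8, all but Ppargc1a, compared to 38.6% of all genes in either direction and 19.8% with ACEi higher. Both treatments were set against the same 6 Veh mice, so their rises are not independent of each other.

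HNF4 alpha and FXR again moved most. Hnf4a read 573, 601 and 537 CPM in the 3 ACEi mice (log2 fold change 1.22, SE 0.15, adjusted p = 1.4e-05). Nr1h4 read 82.4, 94.7 and 101 CPM (1.23, SE 0.23, adjusted p = 0.00035). Both genes lay between the Veh and WT ranges in every ACEi mouse.

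Ppara read 4.0, 4.04 and 4.63 CPM, within or close to the WT range (0.92, SE 0.24, adjusted p = 0.0046). Rxra read 137, 142 and 126 CPM (0.53, SE 0.09, adjusted p = 0.00018). Esrra read 118, 135 and 109 CPM (0.60, SE 0.12, adjusted p = 0.00047). The Rxra and Esrra values fell in a band that touched neither Veh nor WT mice, and so did those of Esrrg at 37.9, 36.7 and 34.5 CPM (0.69, SE 0.10, adjusted p = 3.9e-05).

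The calls of the 2 coactivators depended on single mice. Ppargc1a read 27.8, 25.4 and 21.1 CPM, the last of which lay inside the Veh range (0.46, SE 0.15, adjusted p = 0.023). Ppargc1b read 3.21, 4.83 and 3.13 CPM (0.60, SE 0.19, adjusted p = 0.014). The Ppargc1a call was lost without mouse A11 (0.37, adjusted p = 0.12) or mouse A13 (0.45, adjusted p = 0.073), and the Ppargc1b call without mouse A13, whose omission left 0.38 (adjusted p = 0.17). With library totals neither was called (0.19 and 0.33) and the other 6 were, up to 0.97, and there the share of all called genes that were higher went from 52.4% to 20.5%. Within flow cell B, with 2 mice a group, Hnf4a (1.08, adjusted p = 0.022) and Nr1h4 (0.79, adjusted p = 0.045) were called and the other 6 ran from 0.25 to 0.77 without a call. Of all genes 9.06% were called within flow cell B, and 52.8% with library totals. Flow cell A, which held 1 ACEi mouse, was not tested alone.

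**Figure D2:**
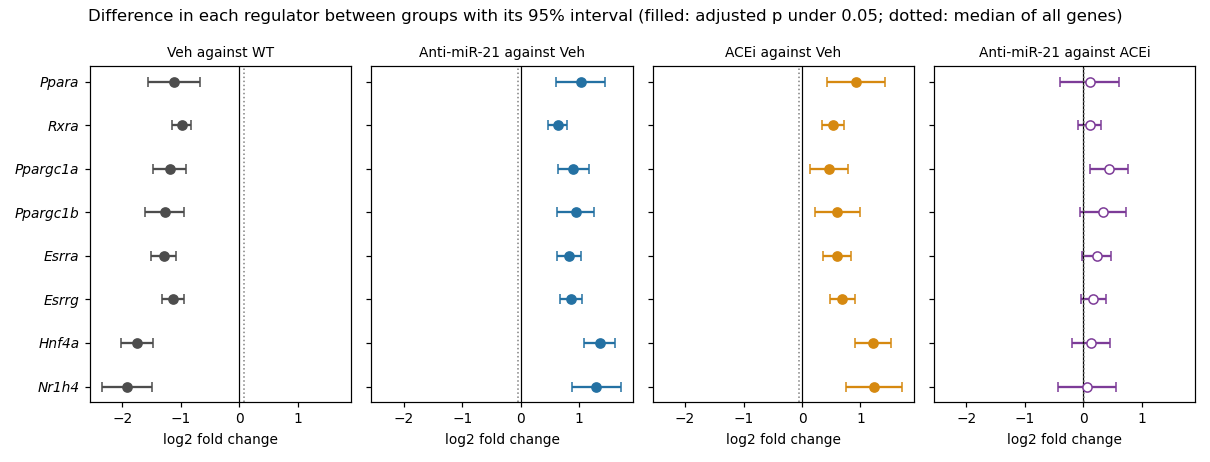
Log2 fold change of each regulator (horizontal axes) in the group comparisons, with 95% intervals as bars, filled points where the adjusted p was under 0.05 and a dotted line at the median of all genes. All 8 points lie left of 0 for Veh against WT and right of 0 for both treatments against Veh, and the points of Anti-miR-21 against ACEi lie between 0.06 and 0.44 with none filled.

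The treatments were then compared directly. No regulator was called different between Anti-miR-21 and ACEi mice by edgeR or by DESeq2, and 1 of them, Ppargc1a, had an unadjusted p under 0.05. Over all genes 0.584% were called, which is 103 genes, and 2562 genes had an unadjusted p under 0.05. With 3 ACEi mice the intervals were wide. The difference in Ppargc1a was 0.44 higher in Anti-miR-21 (95% interval 0.11 to 0.77, edgeR adjusted p = 0.21), with 33.5 ± 4.55 compared to 24.7 ± 3.39 CPM. That of Ppargc1b was 0.33 (-0.06 to 0.73) and that of Esrra 0.23 (-0.02 to 0.48). For Esrrg it was 0.17 (-0.04 to 0.39), for Hnf4a 0.13 (-0.19 to 0.45) and for Rxra 0.11 (-0.09 to 0.30). Ppara (0.11, -0.40 to 0.61) and Nr1h4 (0.06, -0.43 to 0.56) had the widest intervals. All 8 differences were above 0 and the groups overlapped for every gene, compared to 8.99% of all genes without overlap. The signs of Ppara and Nr1h4 turned under other settings, Ppara to -0.01 on FPKM and Nr1h4 to between -0.15 and -0.01. These groups were spread unevenly over the flow cells. With flow cell as a term the Ppargc1a difference was 0.6 (SE 0.14, edgeR adjusted p = 0.054), still not called. A missed threshold with 3 ACEi mice does not show that the treatments acted alike.

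Anti-miR-21 kidneys remained below WT for part of the set. Rxra (log2 fold change -0.36, adjusted p = 0.0013), Esrra (-0.47, adjusted p = 0.00093), Esrrg (-0.27, adjusted p = 0.016), Hnf4a (-0.41, adjusted p = 0.016) and Nr1h4 (-0.63, adjusted p = 0.017) were called lower. These are 5 of 8, compared to 19.8% of all genes called lower and 43.7% called in either direction. Ppargc1a (-0.29, interval -0.57 to -0.02, adjusted p = 0.08), Ppargc1b (-0.34, -0.67 to -0.01, adjusted p = 0.093) and Ppara (-0.09, -0.52 to 0.34, adjusted p = 0.75) were not. Within flow cell A 6 were called, Ppargc1b added, compared to 32.7% of all genes. With library totals only Esrra was called, 1 of 8, compared to 49.5% of all genes, and Ppara stood at 0.14. The Ppargc1b difference reached the threshold without WT mouse A17 (-0.43, adjusted p = 0.038) or Anti-miR-21 mouse A22 (-0.42, adjusted p = 0.04).

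ACEi kidneys were lower than WT for 7 of the 8, at log2 fold changes from -0.73 (Ppargc1a, adjusted p = 0.0012) to -0.45 (Esrrg, adjusted p = 0.002). Of all genes 22.5% were called lower and 47.7% in either direction. Esrra (-0.70, adjusted p = 0.00014), Rxra (-0.46, adjusted p = 0.00067), Hnf4a (-0.53, adjusted p = 0.0096), Ppargc1b (-0.67, adjusted p = 0.0082) and Nr1h4 (-0.69, adjusted p = 0.029) were among them, and Ppara was not (-0.20, interval -0.72 to 0.32, adjusted p = 0.54). The Nr1h4 call was lost without any 1 of the WT mice A3, A6 and A14 or the ACEi mice A11, A13 and A23, with values from -0.75 to -0.60. The Ppargc1b call was lost without A11 (-0.57, adjusted p = 0.054) or A23 (-0.55, adjusted p = 0.059). Within flow cell B alone 2 were called, Ppargc1a (-0.71) and Esrra (-0.70), and the same 2 with library totals, where Ppara stood at 0.11. Of all genes 29.7% and 53.1% were called in these settings.

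To set the treated mice on 1 scale per gene, each was placed between the Veh mean (0%) and the WT mean (100%) of log2 CPM. This is a description, since both treatments share the Veh and WT means. In Anti-miR-21 mice the mean place was 90.0% for Ppara, 76.8% for Hnf4a, 75.9% for Esrrg, 75.5% for Ppargc1a, 73.1% for Ppargc1b, 66.8% for Nr1h4, 64.3% for Rxra and 63.4% for Esrra. In ACEi mice it was 83.4% for Ppara, 70.2% for Hnf4a, 65.8% for Nr1h4, 61.0% for Esrrg, 53.7% for Rxra, 46.3% for Esrra, 46.0% for Ppargc1b and 39.5% for Ppargc1a. Hnf4a and Ppara thus stood high in both groups, and Ppargc1a had the lowest mean in the ACEi group. Ppargc1b and Esrra came next there with nearly equal means, and Ppargc1b ran from 28.6% to 78.2% between mice.

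Mice of the same group differed across the set. The median place over the 8 genes was 72.7% in Anti-miR-21 mouse A2, 50.7% in A8, 69.7% in A10, 80.8% in A12, 76.3% in A15 and 90.9% in A22. In the ACEi mice it was 56.8% in A11, 64.9% in A13 and 49.1% in A23. Mouse A22 thus stood highest, with places from 67.2% for Rxra to 104% for Ppara. Mouse A8 ran from 37.0% for Ppara to 73.9% for Nr1h4. In mouse A2 the order differed, with Nr1h4 lowest at 39.5% and Ppara highest at 92.5%, and in mouse A23 the genes ran from 21.2% for Ppargc1a to 94.9% for Ppara.

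**Figure D3:**
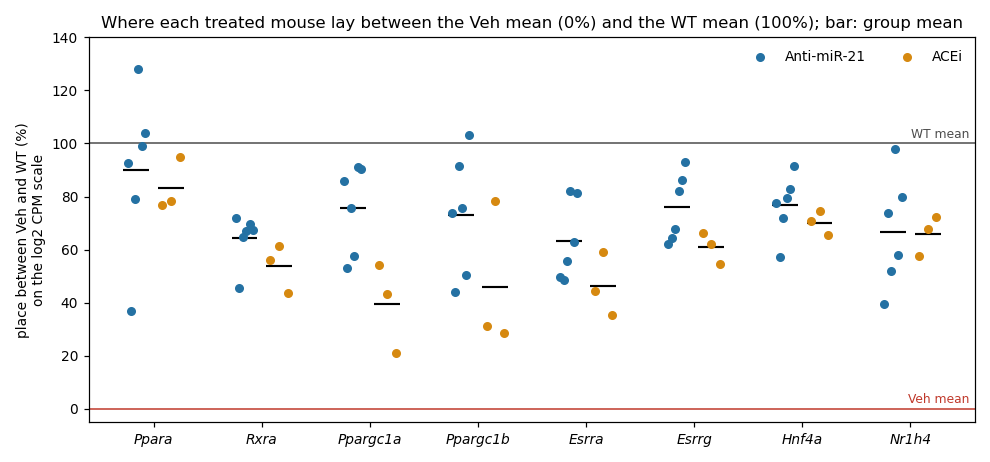
Place of each treated mouse (points) between the Veh mean, drawn at 0%, and the WT mean, drawn at 100%, on the log2 CPM scale for each regulator, with bars at the group means. ACEi mice lie lowest for Ppargc1a, at a mean of 39.5%, and Anti-miR-21 mice highest for Ppara, at 90.0%, with 1 mouse at 128%.

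The genes that these regulators act on or with were read from lists taken as a whole. Target genes of PPAR alpha, most of which encode enzymes of mitochondrial and peroxisomal fatty acid oxidation, were lower in Veh than in WT for 19 of 25 tested, with 3 higher and 3 not called, and a median log2 fold change of -1.14. The medium-chain dehydrogenase gene Acadm read 1481 ± 82.3 CPM in WT and was much lower in Veh (log2 fold change -2.84, SE 0.23, adjusted p = 6.4e-10). The peroxisomal enzyme genes Ehhadh (-2.65, adjusted p = 3.1e-08) and Acaa1b, which encodes a thiolase (-1.68, adjusted p = 4.6e-06), were also lower. Anti-miR-21 raised 20 of the 25 over Veh and lowered 1 (median 1.08), and ACEi raised 19 and lowered 1 (median 0.66), compared to 17 and 2 (median 0.74) and 14 and 2 (median 0.39) with library totals. Acadm rose by 2.09 (adjusted p = 1.4e-07) and 1.81 (adjusted p = 2e-05) under the 2 treatments.

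A few PPAR alpha targets went the other way, and they are named here after their values were seen. The 3 that were higher in Veh were Plin2, a coat protein of lipid droplets (1.05, adjusted p = 3e-09), the fatty acid hydroxylase gene Cyp4a14 (1.54, adjusted p = 0.011) and the kinase gene Pdk4 (0.59, adjusted p = 0.035). Plin2 was also the 1 gene of the list that fell under each treatment, by 0.45 (adjusted p = 0.00018) with anti-miR-21 and by 0.34 (adjusted p = 0.017) with ACEi. In Anti-miR-21 mice 5 targets stood above WT and 7 below, and 8 above and 2 below with library totals. Among the 5 were Cyp4a14 (2.40, adjusted p = 0.0012), Angptl4 (0.64, adjusted p = 0.033), Plin2 (0.60, adjusted p = 3.2e-05) and Acot1 (0.40, adjusted p = 0.0086). Cyp4a14 varied greatly between WT mice, at 16.7 ± 16.3 CPM, and read 88.5 ± 38.1 CPM in Anti-miR-21 mice. In ACEi mice 1 target was above WT, Plin2 (0.71, adjusted p = 2.4e-05), and 12 were below, compared to 2 above and 4 below with library totals.

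Target genes of the PGC-1 coactivators and the ERRs, which act in the citric acid cycle, the respiratory chain and mitochondrial DNA upkeep, were lower in Veh for 15 of 17 tested and higher for 1, with a median of -0.96. Cytochrome c (Cycs) fell from 216 to 59.4 CPM on average (-1.87, adjusted p = 5.1e-09). Manganese superoxide dismutase (Sod2) stood at -1.73 (adjusted p = 3.6e-10) and the succinate dehydrogenase subunit Sdhb at -1.59 (adjusted p = 3e-10). The 1 higher gene was the transcription factor gene Nrf1 (0.20, adjusted p = 0.014), and Ckmt1 was not called (-0.12, adjusted p = 0.12), both named after their values were seen. Anti-miR-21 raised 15 of the 17 over Veh (median 0.62) and ACEi raised 14 (median 0.47), with none lowered. With library totals anti-miR-21 raised 12 and lowered 3 (median 0.28), and ACEi raised 9 and lowered 2 (median 0.20). Compared to WT, 14 of the 17 were lower in each treated group, in ACEi mice with Ckmt1 among them (-0.24, adjusted p = 0.027), with medians of -0.35 and -0.49, and 5 and 6 were with library totals (medians -0.12 and -0.18).

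Bile acid transport genes that FXR is known to control could be tested for 6 of 10 listed. Those encoding the exporter subunits OST alpha and OST beta (Slc51a -1.97, adjusted p = 6.9e-07, and Slc51b -1.97, adjusted p = 2.4e-08), the apical bile acid importer (Slc10a2 -1.87, adjusted p = 3.6e-08) and the apical export pump MRP2 (Abcc2 -1.37, adjusted p = 3.5e-09) were lower in Veh. Abcc4, the gene of the export pump MRP4, was higher (1.12, adjusted p = 8.1e-07) and is named after its values were seen. The list's median was -1.62. All 4 lower genes rose with anti-miR-21 (Slc51b most, by 1.62) and with ACEi (Slc51a most, by 1.62), and 2 genes, Abcc4 and the barely detected Abcb4, fell with anti-miR-21 and none with ACEi, or 1 with library totals. Fgf15, Abcb11, Cyp7a1 and Sult2a1, which are genes of liver and gut, had too few counts to test.

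Other receptors and coregulators moved in both directions. Of 18 nuclear receptors that pair or compete with the 8, 9 were lower and 5 higher in Veh, with a median of -0.17 that turned to 0.41 with library totals (7 lower, 9 higher). Without Veh mouse A4 this median was -0.43, and without WT mouse A17 it was -0.27. The vitamin D receptor gene Vdr went from 338 ± 56.6 to 104 ± 18.2 CPM (-1.70, adjusted p = 2.7e-10), the thyroid hormone receptor gene Thrb fell by 1.54 on the log2 scale (adjusted p = 8.9e-12), and Esrrb, the third estrogen-related receptor, by 1.89 (adjusted p = 1.8e-06). Nr0b2, the gene of the FXR-induced repressor SHP, was lower by 1.99 (adjusted p = 1.7e-06) at under 1 CPM in Veh. Anti-miR-21 raised 7 and lowered 5 of the 18 (5 and 9 with library totals), and ACEi raised 3 and lowered 4 (3 and 8). Esrrb was called with anti-miR-21 (1.27, adjusted p = 0.00022) and not with ACEi (0.51, adjusted p = 0.19), and its difference between the treatments was 0.76 (SE 0.31, adjusted p = 0.27).

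Of 16 coregulators 9 were lower and 4 higher in Veh, with a median of -0.20 that turned to 0.38 with library totals (4 lower, 10 higher). The mitochondrial deacetylase gene Sirt3 (-1.89, adjusted p = 1.3e-10), Lpin1 (-1.72, adjusted p = 2e-09), the AMP kinase subunit gene Prkaa2 (-1.64, adjusted p = 4.3e-10) and the PGC-1-induced regulator gene Perm1 (-2.28, adjusted p = 3.4e-09) led the list. Anti-miR-21 raised 7 and lowered 4 of them (4 and 9 with library totals), and ACEi raised 5 and lowered 2 (3 and 6). Perm1 stayed at 1.98 ± 0.341 CPM in ACEi compared to 2.11 ± 0.446 in Veh (-0.09, adjusted p = 0.79), and rose to 3.78 ± 1.25 CPM in Anti-miR-21 mice (0.84, adjusted p = 0.0011). The difference in Perm1 between the treatments was 0.93 (SE 0.25, adjusted p = 0.092).

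Proximal tubule genes, many of which depend on HNF4 alpha in the textbook view, were lower in Veh for 19 of 20 and higher for 1, with a median of -2.49. The kidney androgen-regulated protein gene Kap went from 27631 to 1556 CPM on average (-4.15, SE 0.58, adjusted p = 2.1e-06), and Ttc36 (-3.12, adjusted p = 3e-10), the organic anion transporter gene Slc22a6 (-2.94, adjusted p = 1.1e-08) and the gluconeogenic gene Pck1 (-2.89, adjusted p = 1.6e-09) followed. The 1 higher gene was the sulfate transporter gene Slc13a1 (0.59, adjusted p = 0.0051), named after its value was seen. Anti-miR-21 raised 19 and ACEi all 20 of the 20 (medians 1.94 and 1.70), and each raised 18 with library totals.

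Other tubule transcription factors divided. Of 15, 9 were lower and 4 higher in Veh (median -0.70), and 6 lower and 7 higher with library totals (median -0.11). Klf15, the gene of a factor of metabolic regulation, went from 140 to 23.3 CPM on average (-2.59, adjusted p = 1.6e-10), and Emx1 (-1.79, adjusted p = 2.8e-10) was also lower. Sox9, a gene of the injured and regenerating tubule, rose from 1.02 to 19.5 CPM (4.25, SE 0.31, adjusted p = 2.5e-10). Gata3 (0.41, adjusted p = 0.0076), Grhl2 (0.93, adjusted p = 3.8e-05) and Foxc1 (0.67, adjusted p = 3.5e-05) were the other higher genes, named after their values were seen. With anti-miR-21 8 of the 15 rose and 5 fell, and with ACEi 5 rose and 3 fell, compared to 5 that rose and 6 that fell under each treatment with library totals. Sox9 fell by 1.61 with anti-miR-21 (adjusted p = 1.1e-05) and stood 0.61 lower with ACEi without a call (adjusted p = 0.10).

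Between Anti-miR-21 and ACEi mice no gene of these 7 lists was called. With library totals the Veh against WT median kept its sign in 5 of the 7 lists, all but partner receptors and coregulators (-0.11 for tubule transcription factors, -0.56 for PPAR alpha targets, -0.38 for PGC-1 and ERR targets, -1.04 for bile acid genes, -1.92 for proximal tubule genes). The medians of the treated groups over Veh turned for partner receptors, coregulators and tubule transcription factors, to between -0.25 and -0.03.

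**Figure D4:**
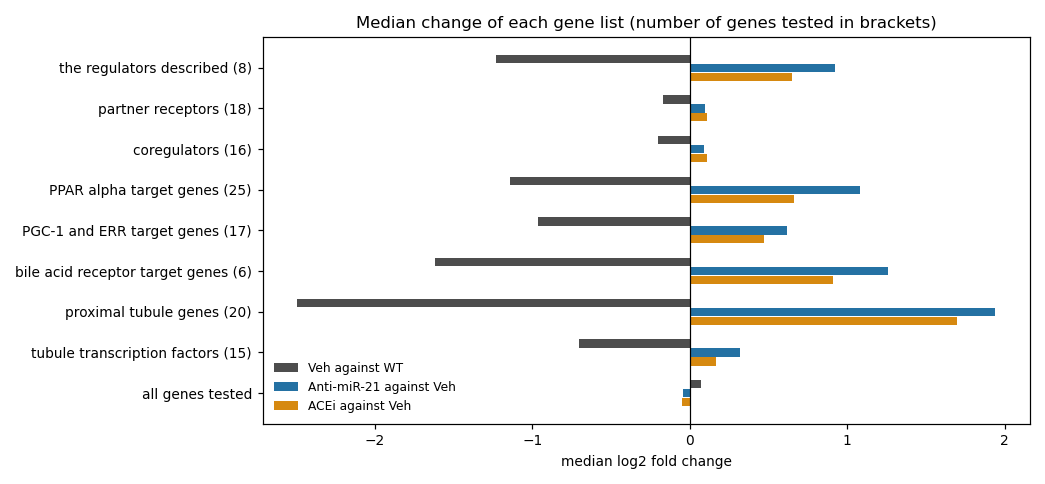
Median log2 fold change (horizontal axis) of the 8 regulators, of each list and of all genes tested, for Veh against WT and for each treatment against Veh, with the number of genes tested in brackets. Proximal tubule genes have the longest bars, -2.49 in Veh and 1.94 and 1.70 under treatment, partner receptors and coregulators lie within 0.20 of 0 and turn direction when library totals replace TMM, and the 8 regulators read -1.23, 0.92 and 0.65.

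Markers of other cell types moved with the groups, and their part in the values of the 8 regulators was not tested. The 6 macrophage markers summed to 140 to 154 CPM in WT, 817 to 998 in Veh, 341 to 518 in Anti-miR-21 and 450 to 532 in ACEi mice, and all 6 were higher in Veh than in WT. The 5 fibroblast markers summed to 82.5 to 199, 1359 to 1644, 346 to 702 and 685 to 786 CPM in that order, and all 5 were higher in Veh. Interstitial and immune transcripts were thus most abundant where the 8 regulators were lowest. The 5 tubule injury markers went from 561 to 647 CPM in WT to 10433 to 15711 in Veh, with 3599 to 8826 in Anti-miR-21 and 6888 to 7369 in ACEi mice, all 5 higher in Veh. The 20 proximal tubule genes summed to 57727 to 70063 CPM in WT, 4380 to 16006 in Veh, 28533 to 52897 in Anti-miR-21 and 30204 to 37020 in ACEi mice, and none was under 1 CPM on average in any group. T cell markers summed to at most 3.08 CPM in WT, where 4 of 5 averaged under 1 CPM, and to 12.7 to 36.4 in Veh, 8.57 to 16.7 in Anti-miR-21 and 12.8 to 21.1 in ACEi mice, and all 5 were higher in Veh. B and plasma cell markers ran from 7.84 to 20.5 CPM in WT and from 18.5 to 78.4 in Veh (4 of 5 higher), with 9.67 to 31.8 in Anti-miR-21 and 13.5 to 54.3 in ACEi mice.

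Nephron segments other than the proximal tubule were also lower in Veh, by 5 of 6 markers of the thick ascending limb (6154 to 7344 CPM in WT, 2319 to 5099 in Veh), 4 of 5 of the distal convoluted tubule (844 to 1225, then 254 to 391) and 4 of 6 of the collecting duct (463 to 812, then 259 to 607). Under treatment the sums for Anti-miR-21 and ACEi mice were 4841 to 6342 and 3855 to 5522 CPM for the thick ascending limb, 593 to 745 and 491 to 569 for the distal convoluted tubule, and 352 to 411 and 478 to 555 for the collecting duct. Podocyte markers were higher in Veh for 4 of 5 (195 to 324 CPM in WT, 347 to 413 in Veh, 429 to 486 in Anti-miR-21, 410 to 427 in ACEi), and of 5 endothelial markers 2 were higher and 1 lower, with sums from 90.4 to 279 CPM over all mice. The loss of segment markers was thus not confined to the proximal tubule, while podocyte markers did not share it.

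Genes typical of neighboring tissues were also read, and whether their transcripts came from those tissues was not tested. The 5 adipocyte markers summed to 0.738 to 7.6 CPM in WT, 0.677 to 138 in Veh, 1.80 to 108 in Anti-miR-21 and 0.361 to 2.65 in ACEi mice, and 4 of 5 were higher in Veh. The 5 liver genes summed to 333 to 492, 135 to 579, 274 to 412 and 466 to 749 CPM in the same order, with 1 of 5 higher in Veh, and the adrenal cortex genes to at most 4.12 CPM, with 1 of 3 tested higher. The 6 libraries holding at least 10 CPM of adipocyte markers were left out, a choice made after the data were seen. Without them all 8 regulators were called in Veh against WT (-1.75 to -0.84) and in Anti-miR-21 against Veh (0.57 to 1.19). In ACEi against Veh 6 were called (0.27 to 1.09), Ppargc1a and Ppargc1b being lost. Of all genes 67.0%, 40.0% and 25.2% were called in these comparisons. Leaving out the 6 libraries with at least 10 CPM of albumin was also chosen afterwards. Without them all 8 were lower in Veh than in WT (-2.16 to -1.1), compared to a median of 0.08 over all genes. They were higher in Anti-miR-21 than in Veh (0.68 to 1.37), compared to -0.04 over all genes. That choice left 1 ACEi mouse, A11, and 2 WT mice. The differences in ACEi against Veh, from 0.37 to 1.25 compared to -0.03 over all genes, thus rest on a lone ACEi mouse.

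Patterns across the 20 mice were compared by the root mean square difference of log2 CPM, each gene centred on its own mean, over all protein-coding genes tested. This is a description of likeness over mice that share group differences. Rxra and Mfn2, a gene of mitochondrial fusion, were closest, at 0.06, followed by Pex5 and D17Wsu92e at 0.07. Esrra lay nearest to Tmem70, Uqcrc1 and Ndufs3, all at 0.07, of which Uqcrc1 and Ndufs3 encode subunits of respiratory complexes. The genes nearest to Esrrg were Stard7, March6 and the carnitine palmitoyltransferase gene Cpt1a, all at 0.11. Hnf4a was nearest to Rab11fip3 at 0.11 and to Cryz and Slc25a15 at 0.13. Ppargc1a was nearest to Cyfip2 and to the potassium channel gene Kcnj1 at 0.14 and to Tmem72 at 0.15.

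Ppargc1b, Nr1h4 and Ppara had less close neighbors. Ppargc1b was nearest to Fnip2 and Rwdd2b at 0.19 and to Mlxipl at 0.20, Nr1h4 to Cryl1 at 0.19, Hoga1 at 0.20 and Fahd2a at 0.21, and Ppara to Clrn3 at 0.21 and Abca3 and Itih5 at 0.22. None of the 8 was among the 3 nearest genes of another of them. Within the set, Rxra and Esrrg were closest by this unscaled measure, at 0.15, and Ppargc1a and Nr1h4 furthest apart, at 0.49.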

How the data were processed

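Whole kidney RNA of 20 mice was sequenced as 100-base paired-end reads on 2 flow cells. For each of 47069 Ensembl genes the authors deposited an estimated count, not normalized between libraries, made from reads placed on GRCm38 by the OmicSoft aligner. The FPKM values they deposited for 33368 entries, normalized by the authors for length and library total, were used for levels of one gene against another and for an alternative. Of these FPKM columns 3 belong to no mouse of the groups and were not used. The library table of the study gives 70004591 to 73294858 alignments per library. Columns were tied to mice by the animal names in the labels, and every mouse is 1 replicate of its group.

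Counts, of which 27.9% of the positive values were not whole, were rounded, filtered with filterByExpr (minimum count 10, minimum total 15), scaled by TMM and then compared by edgeR's quasi-likelihood method (R 4.3.3, edgeR 4.0.16). The fit had 1 coefficient per group over all 20 mice, p-values were adjusted by Benjamini-Hochberg over 17622 genes and the threshold was 0.05. Standard errors were taken from the fold change and its F statistic, and 95% intervals from the t distribution with the fit's degrees of freedom. Log2 CPM used a prior count of 2. The steps were tested on simulated counts with known changes.

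The 8 genes and all lists were chosen with earlier results of these data known. Besides the 8 genes and Col4a3, the text names the 4 genes of each pathway list with the largest absolute fold change between Veh and WT among those called, and the 3 genes nearest to each of the 8. A few genes that this rule selects are not reported here. Lists of markers stood for proximal tubule, thick ascending limb, distal convoluted tubule, collecting duct, podocyte, endothelium, fibroblast, macrophage, T cell, B and plasma cell, adipocyte, adrenal cortex, liver and tubule injury. Alternatives were 3 other scalings, 2 count filters, only the groups compared, flow cell as a term or alone, DESeq2 1.42.0, limma 3.58.1 on log2 of the deposited FPKM plus 1 or 0.1, and the omission of 1 mouse at a time. Leaving out the libraries with at least 10 CPM of adipocyte markers or of albumin was added after the data were seen. Gene positions and 3' UTRs came from GENCODE (GRCm38), and microRNA and promoter sequences from RefSeq (GRCm38.p6). Tables and plots were made with pandas 2.3.3, numpy 2.4.6 and matplotlib 3.10.9 under Python 3.11.15.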

Additional observations from a re-analysis of the deposited data

Results flagged for a closer look

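In 2 of the 24 sets of 1 regulator in 1 group that held 4 to 10 mice, a single mouse stood apart from the others of its group by Dixon's criterion at the 95% level. Chance alone would be expected to mark about 1 in 20 such sets. Rxra read 128 CPM in Anti-miR-21 mouse A8, below the other 5 mice of the group, and its gap to the nearest of them was 0.712 of the group's range. Esrrg read 28.3 CPM in Veh mouse A20, above the other 5 Veh mice, with a gap of 0.647 of the range. Mouse A8 also had the lowest Ppara, Hnf4a, Ppargc1a, Ppargc1b and Esrra values among the Anti-miR-21 mice, but not the lowest Esrrg or Nr1h4 values. These lowest values were 2.88, 484, 27.5, 3.58 and 122 CPM in that order. Mouse A20 had 65.1 CPM of albumin, the highest of the Veh mice.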

How the results depend on the processing

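No paired analysis was possible because each animal name belongs to 1 mouse and pairs no mice between groups. Of the single-gene results under alternatives other than leaving out a mouse, 111 of 112 kept direction and call for Veh against WT, 104 of 104 for Anti-miR-21 against Veh, 86 of 104 for ACEi against Veh, 90 of 96 for Anti-miR-21 against ACEi, 86 of 104 for Anti-miR-21 against WT and 75 of 104 for ACEi against WT. The cause of the changes was not tested, except that some settings hold fewer mice or more genes. Regulators called in ACEi against Veh fell to 2 in flow cell B alone and 5 without libraries of at least 10 CPM albumin, an omission that left 1 ACEi mouse, assumed in each value below to vary like the other groups, and 2 WT mice. In Anti-miR-21 against WT they fell to 1 with library totals or limma on either FPKM scale and to 3 without the albumin libraries. In ACEi against WT they fell to 2 with library totals or in flow cell B alone, and to 1 with limma on either FPKM scale or without the albumin libraries. The share of all genes called became, without a count filter, 37.4% (Anti-miR-21 against Veh), 23.7% (ACEi against Veh), 0.243% (Anti-miR-21 against ACEi), 25.9% (Anti-miR-21 against WT) and 28.7% (ACEi against WT). In flow cell B alone it was 9.06% (ACEi against Veh) and 29.7% (ACEi against WT). With limma on log2(FPKM + 1) it was 35.9% (Anti-miR-21 against WT) and 40.1% (ACEi against WT). With limma on log2(FPKM + 0.1) these 2 shares were 38.1% and 41.6%. Without the adipocyte libraries it was 25.2% (ACEi against Veh) and 0.14% (Anti-miR-21 against ACEi), and without the albumin libraries 13.1% (ACEi against Veh), 0.00543% (Anti-miR-21 against ACEi), 20.7% (Anti-miR-21 against WT) and 13.9% (ACEi against WT). For Anti-miR-21 against ACEi it was also 2.48% with DESeq2, 1.12% with at least 10 counts in every mouse and 0.312% with limma on log2(FPKM + 0.1), and from 0.117% (without A23) to 1.22% (without A8) over single omissions. Leaving out 1 mouse left 8 regulators called in Veh against WT (70.9% to 72.8% of all genes) and in Anti-miR-21 against Veh (54.8% to 58.9%). It left 6 to 8 in ACEi against Veh (27.6% to 41.7% of all genes) and 0 between the treatments. Against WT it left 5 to 6 in Anti-miR-21 mice (37.8% to 45.1%) and 5 to 7 in ACEi mice (38.1% to 47.8%). Signs turned for Nr1h4 between Anti-miR-21 and ACEi, to -0.02 with library totals, -0.05 on both FPKM scales and -0.15 without the adipocyte libraries, and ran from -0.08 to 0.15 over single omissions. Ppara turned to -0.01 on both FPKM scales in the same comparison. Against WT, Ppara turned to 0.14 in Anti-miR-21 and 0.11 in ACEi mice with library totals, and ran from -0.19 to 0.01 over single omissions in Anti-miR-21 mice. The 44 counts of Ppara and 76 of Ppargc1b in the mice with fewest limit what can be read from these genes.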
